A study of Mus musculus with 12 samples.

Results

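The effect of the Emu-myc transgene on mouse hematopoietic stem cells was described across the genome by setting 3 libraries from Emu-myc mice (E1, E2 and E3, group E) against 3 from Wild-type mice (WT2, WT3 and WT4, group WT). These 6 of the 12 libraries of the study were chosen by their genotype labels alone, and both caspase genes of the study were intact in them. All mice were of strain C57BL/6J, and each library was total RNA of sorted hematopoietic stem cells from 1 mouse. The other 6 libraries came from mice with the genotype Casp1 -/- Casp11 -/-, without the transgene (C1, C2 and C3, group C) or with it (CE1, CE2 and CE3, group CE). CE against C is the same transgene contrast with no library in common with E against WT. It is used here to set the genes of interest beside their values in other mice. All 12 libraries were fitted together, so C and CE also enter the estimate of spread behind the p-values of E against WT. The labels give no age, sex, sorting markers, batch or litter, so the p-values measure the spread between these mice, pooled over all groups.

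Hematopoietic stem cells (HSCs) are the rare marrow cells that renew themselves and feed all blood lineages. In the Emu-myc transgene, Myc is placed under the enhancer of the immunoglobulin heavy chain locus, which is most active in B-lineage cells, and mice that carry it develop B-cell lymphomas. MYC pairs with MAX to bind E-box sequences and is known for raising genes of ribosome production, metabolism and cell division. The comparison asks which transcripts differ in the stem cell compartment of such mice.

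The 6 libraries held 24529611 to 30055597 counts, and 17441 to 17798 genes had at least 1 count. Levels are given as CPM, the count scaled by effective library size, and every adjusted p is from edgeR's quasi-likelihood test with Benjamini-Hochberg adjustment over 14473 genes. The correlation of log2 CPM across genes was 0.9846 to 0.9881 within E, 0.9803 to 0.9877 within WT and 0.9804 to 0.9888 between the groups, and these ranges overlapped. The first principal component of these 6 libraries carried 29.1% of the variance and set WT4 (score -41.9) apart from the others (-9.38 to 20.1). The second carried 23.7%, and all E libraries (-21.9 to -6.62) scored below all WT libraries (-0.363 to 36.7). Kit, the stem cell factor receptor gene, was at 364 to 435 CPM in WT and 415 to 468 in E. Procr, the endothelial protein C receptor gene used to sort HSCs, was at 8.28 to 13.6 CPM in WT and 10.3 to 11.8 in E. Slamf1, which encodes the HSC surface protein CD150, was at 3.38 to 4.06 CPM in WT and 3.42 to 4.71 in E. Flt3 and Cd48 encode proteins that mark multipotent progenitors and are often used to leave such cells out of an HSC sort. Both genes were at higher CPM than Procr and Slamf1 in every E and WT library. The make-up of the sorted cells was not tested. Flt3 was at 308 to 441 CPM in WT and 376 to 487 in E. Cd48 was at 115 to 143 CPM in WT and 114 to 144 in E.

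Myc itself was at 447, 437 and 394 CPM in WT2, WT3 and WT4 and at 425, 449 and 428 in E1, E2 and E3. The groups overlapped, and the difference did not pass (log2 0.03, SE 0.10, adjusted p = 0.967). Gene-level counts do not separate reads of a transgene from those of the resident gene. Casp1 (log2 0.10, adjusted p = 0.897) and Casp4, the annotated name of Casp11 (log2 0.18, adjusted p = 0.843), overlapped between the groups as well.

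A small set of transcripts differed. Of the 14473 genes, 12 passed at an adjusted p under 0.05, which is 0.0829% of those tested, with 7 higher in E (0.0484%) and 5 lower (0.0345%). The 7 that rose were Selp, which encodes P-selectin, and 6 genes that lie together on chromosome 19. The 5 that fell were the surrogate light chain genes Vpreb1, Vpreb2 and Igll1 of early B cells, the filament gene Bfsp2 and the long noncoding RNA gene Gm15915. In all 12 the 3 libraries of one group lay wholly above the 3 of the other, which was so for 8.02% of all genes tested, 4.46% with E higher and 3.56% with E lower. The 12 were picked by p-values from the same libraries, so this separation describes them and is not a test. Of all genes 49.4% had a log2 fold change above 0 and 50.6% below. The median log2 fold change over all genes was -0.00, its middle 50% ran from -0.13 to 0.12, and the median SE of a gene was 0.14. Fitted on these 6 libraries alone, Selp was the single gene that passed. CE against C, fitted on its own libraries alone, went the other way, from 30 genes to 110, and the cause was not tested. Fits with 1 of the 6 E and WT libraries left out called 5 (without E3) to 21 genes (without WT4).

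**Figure D1:**
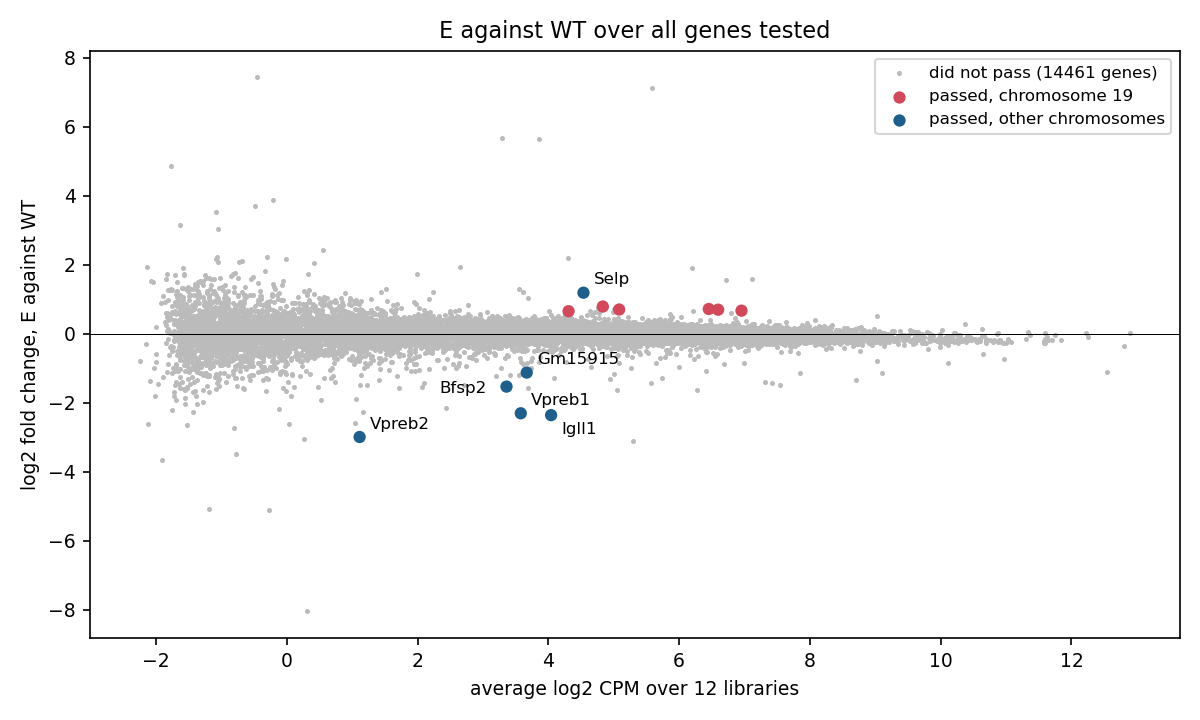
Log2 fold change of E against WT (vertical) against the average log2 CPM over the 12 libraries (horizontal), 1 point per gene tested. The 6 coloured points of chromosome 19 lie between 0.65 and 0.79, Selp stands above them at 1.19, and the 5 genes that fell lie between -2.99 and -1.12, while many grey points farther from 0 did not pass.

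Large fold changes were not limited to genes that passed. Over all genes tested, passed or not, an absolute log2 fold change over 1 was found for 328 (2.27%), 158 higher and 170 lower. It was over 2 for 42 genes (0.29%), 20 higher and 22 lower. At an unadjusted p under 0.05 there were 952 genes (6.58%), of which 480 were higher (3.32%) and 472 lower (3.26%).

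Selp (gene 20344, chromosome 1, 164115264 to 164150026, mm10) encodes the adhesion molecule P-selectin, which platelets and endothelial cells show on their surface and which HSCs can express. It was at 15.2, 13.3 and 14.8 CPM in WT2, WT3 and WT4 and at 31.9, 29.2 and 37.6 CPM in E1, E2 and E3. The lowest E library thus stood at nearly double the highest WT library. The rise was 2.28-fold (log2 1.19, SE 0.14, adjusted p = 0.00253), and it passed under all 14 alternative settings, leaving out any 1 library included. In the caspase knockout mice Selp was at 11.2, 14.0 and 11.9 CPM in C1, C2 and C3 and at 28.3, 33.2 and 37.5 CPM in CE1, CE2 and CE3, again without overlap (log2 1.42, adjusted p = 0.000509).

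Selp was the single member that passed among 21 tested genes of the selectin pathway (ligands, selectins and the enzymes that build their sugars), of which 15 were higher and 6 lower, with a median log2 of 0.04. Selplg, which encodes the main ligand of P-selectin, was at 188 to 219 CPM in WT and 155 to 230 in E (log2 -0.14, adjusted p = 0.838). It did not separate the groups.

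P-selectin is also a platelet protein, and megakaryocyte and platelet genes were therefore set beside it. Of 31 tested members 19 were higher and 12 lower, Selp alone passed, and the median was 0.11. Without E2 the median was -0.14. Ppbp, a platelet chemokine gene, was at 16.1 CPM in E2 and at 1.04 to 3.58 CPM in the other 5 libraries. Vwf, which encodes von Willebrand factor and marks platelet-biased HSCs, was at 70.4 to 74.9 CPM in WT and 61.5 to 85.9 in E (log2 -0.03, adjusted p = 0.974). Pf4, the platelet factor 4 gene, was at 127 to 196 CPM in WT and 101 to 139 in E (log2 -0.32, adjusted p = 0.768). Itga2b, which encodes the integrin CD41, was lower in every E library (239 to 293 CPM) than in every WT library (313 to 328 CPM), without passing (log2 -0.26, adjusted p = 0.722).

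**Figure D2:**
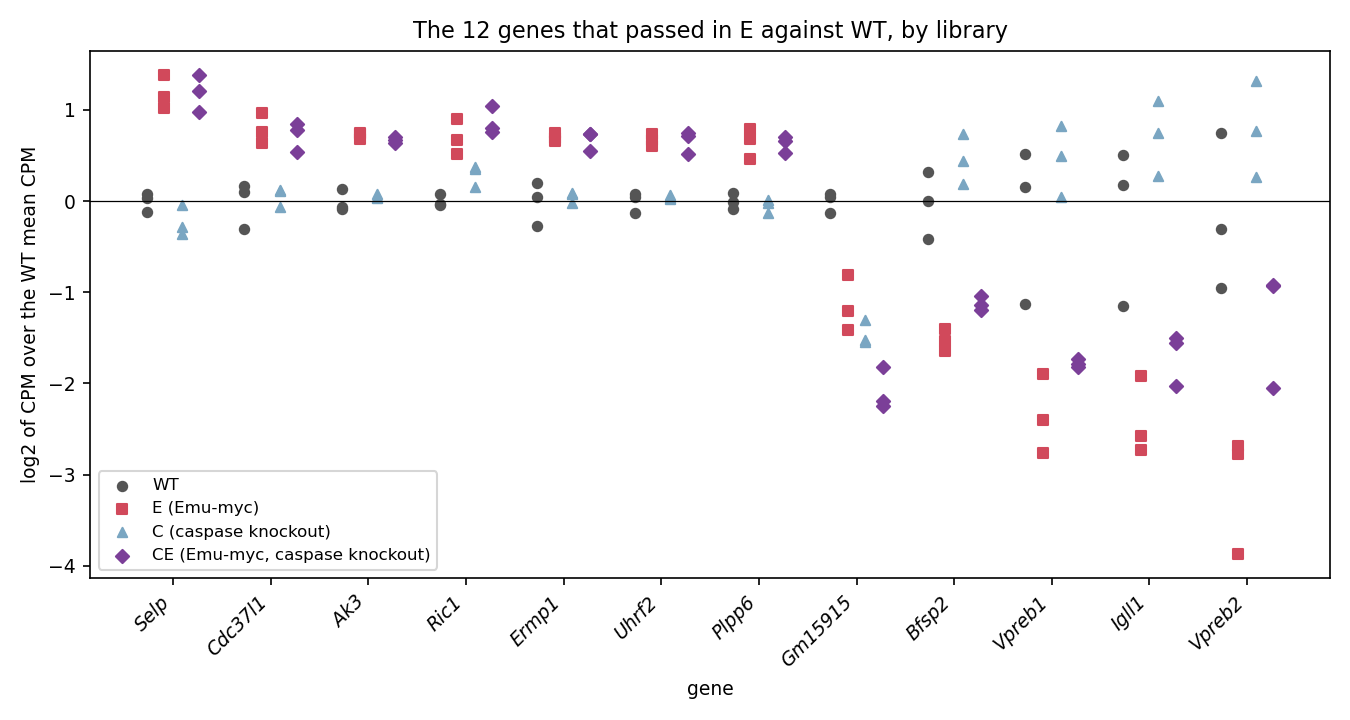
CPM of each library relative to the WT mean of the gene, on a log2 scale (vertical), for the 12 genes that passed in E against WT (horizontal), with 1 point per library in groups WT, E, C and CE. The E points lie wholly above the WT points for the first 7 genes and wholly below for the last 5, and the C points of Gm15915 lie with the E points rather than with WT.

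The other 6 genes that rose lay within 1.13 Mb of chromosome 19 (28963920 to 30093726, mm10). In the order of the chromosome they were Plpp6 and Cdc37l1, then Ak3, Ric1 and Ermp1, and last Uhrf2. The log2 fold changes lay in a narrow range, from 0.65 for Plpp6 to 0.79 for Cdc37l1. They have no one function in common: they encode a lipid phosphatase, an Hsp90 co-chaperone, a mitochondrial adenylate kinase, a subunit of a Golgi nucleotide exchange factor, an endoplasmic reticulum metallopeptidase and a ubiquitin ligase that reads chromatin.

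Ak3 (gene 56248, 28995053 to 29048080) was at 63.6, 73.0 and 62.8 CPM in WT2, WT3 and WT4 and at 110.3, 111.3 and 106.5 CPM in E1, E2 and E3 (log2 0.72, SE 0.08, adjusted p = 0.00253). Uhrf2 (gene 109113, 30030430 to 30093726), at the other end of the interval, was at 100.1, 98.4 and 87.3 CPM in WT and at 151, 145 and 158 CPM in E (log2 0.67, SE 0.09, adjusted p = 0.0078). The E values of each gene lay close together and well clear of WT.

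Ermp1 (gene 226090, 29609876 to 29648415) was at 84.4, 75.8 and 60.7 CPM in WT and at 116, 124 and 119 CPM in E (log2 0.70, SE 0.11, adjusted p = 0.0235). Ric1 (gene 226089, 29522216 to 29605921) was at 23.3, 25.1 and 23.0 CPM in WT and at 33.9, 37.8 and 44.5 CPM in E (log2 0.70, SE 0.12, adjusted p = 0.0447). Neither overlapped, although WT of Ermp1 was more spread than E.

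Cdc37l1 (gene 67072, 28990337 to 29026664) was at 23.5, 22.5 and 17.0 CPM in WT and at 32.6, 40.8 and 35.4 CPM in E (log2 0.79, SE 0.14, adjusted p = 0.045). Plpp6 (gene 74411, 28963920 to 28966801) was at 16.5, 15.5 and 14.6 CPM in WT and at 21.4, 26.9 and 24.9 CPM in E (log2 0.65, SE 0.11, adjusted p = 0.0484). These stood nearest the threshold: leaving out 1 library at a time, Cdc37l1 passed in 0 of 6 fits and Plpp6 in 1, against 6 of 6 for Ak3 and 5 of 6 for Uhrf2. Cdc37l1 and Ak3 overlap on the chromosome, and the strandedness of the counting is not given in the sources used here, so reads of the shared stretch may have gone to either.

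The rest of the interval stood in the same direction. All 17 tested genes with their body inside it were higher in E, with a median log2 of 0.67 (0.44 to 1.21), and in 16 of them the groups did not overlap. Over all genes 4.46% were separated with E higher, and among the 469 tested genes elsewhere on chromosome 19 it was 17, with a median of -0.04. The interval was drawn from the genes that passed, so its count describes these data and is not a test.

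Named members of the interval that did not pass include immune signalling genes. Jak2, the kinase of many cytokine receptors including that of thrombopoietin, was at 60.6, 61.6 and 48.4 CPM in WT and at 79.4, 95.7 and 95.9 CPM in E (log2 0.67, SE 0.12, adjusted p = 0.0716). Cd274, which encodes the checkpoint ligand PD-L1, was at 19.7, 24.9 and 17.0 CPM in WT and at 30.2, 32.7 and 37.3 CPM in E (log2 0.70, SE 0.14, adjusted p = 0.119). Its neighbour Pdcd1lg2, which encodes PD-L2, was low, at 0.947 to 1.82 CPM in WT and 2.54 to 3.20 in E (log2 1.21, SE 0.26, adjusted p = 0.164). None of these overlapped between the groups. Plgrkt, a plasminogen receptor gene, was at 44.0 to 59.0 CPM in WT and 67.6 to 81.7 in E (log2 0.59, adjusted p = 0.0799). Rcl1, a gene of ribosomal RNA processing, had the smallest difference of the 17, at 82.7 to 112 CPM in WT and 119 to 135 in E (log2 0.44, adjusted p = 0.296).

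The remaining members were 1700018L02Rik (log2 0.70), Gm9895 (0.49), Insl6 (0.62), A930007I19Rik (1.16), 9930021J03Rik (0.64) and Ranbp6 (0.64). Of these Gm9895 alone overlapped between the groups. Plgrkt overlaps Cd274 on the chromosome, and 1700018L02Rik overlaps Ak3, with the same limit on the counting.

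Outside the interval, whose edges are set by the genes that passed, most differences were smaller. The 10 tested genes before it had a median log2 of 0.17 and the 10 after it 0.16, with 2 separated as higher in each. Vldlr, which encodes the very low density lipoprotein receptor, lies before the interval, with its midpoint at -2294 kb from the interval's centre. It was at 27.7, 29.1 and 18.9 CPM in WT and at 39.1, 45.1 and 41.5 CPM in E (log2 0.73, SE 0.14, adjusted p = 0.0746), a difference of the size seen inside. Between Vldlr and the interval, Pum3 (log2 -0.04) and Rfx3 (-0.09) were near 0. Glis3, a zinc finger factor gene, was low, at a mean of 0.806 CPM in WT and 1.46 in E, without overlap between the groups (log2 0.84, SE 0.34, adjusted p = 0.72), and it was at log2 -0.03 in CE against C. At the interval's edge 4430402I18Rik, at 0.215 CPM in WT and 0.329 in E on average, was at log2 0.57 (SE 0.81, adjusted p = 0.895) and overlapped. In CE against C 4430402I18Rik was at log2 -1.155 (SE 0.75). On the other side Cstf2t, a polyadenylation factor gene, was at 42.8 to 60.2 CPM in WT and at 69.3 CPM or more in E (log2 0.48, adjusted p = 0.286). That difference was larger than the one of Rcl1 inside the interval (0.44), and Cstf2t was at log2 0.50 in CE against C. Prkg1, also on that side, was at log2 0.41 and overlapped between E and WT.

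In CE against C all 17 genes of the interval were higher too, with a median log2 of 0.66, and 7 passed as higher. Over all genes 52.2% were higher and 47.8% lower in CE, 0.207% passed (0.0622% higher and 0.145% lower), and 14.9% did not overlap (7.03% with CE higher and 7.86% with CE lower). Ak3 was at log2 0.62 there (adjusted p = 0.00709), Uhrf2 at 0.62 (adjusted p = 0.009) and Cd274 at 0.89 (adjusted p = 0.0141). Vldlr was at log2 0.74 (adjusted p = 0.0381). None of the 17 passed the test of the difference between E against WT and CE against C.

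**Figure D3:**
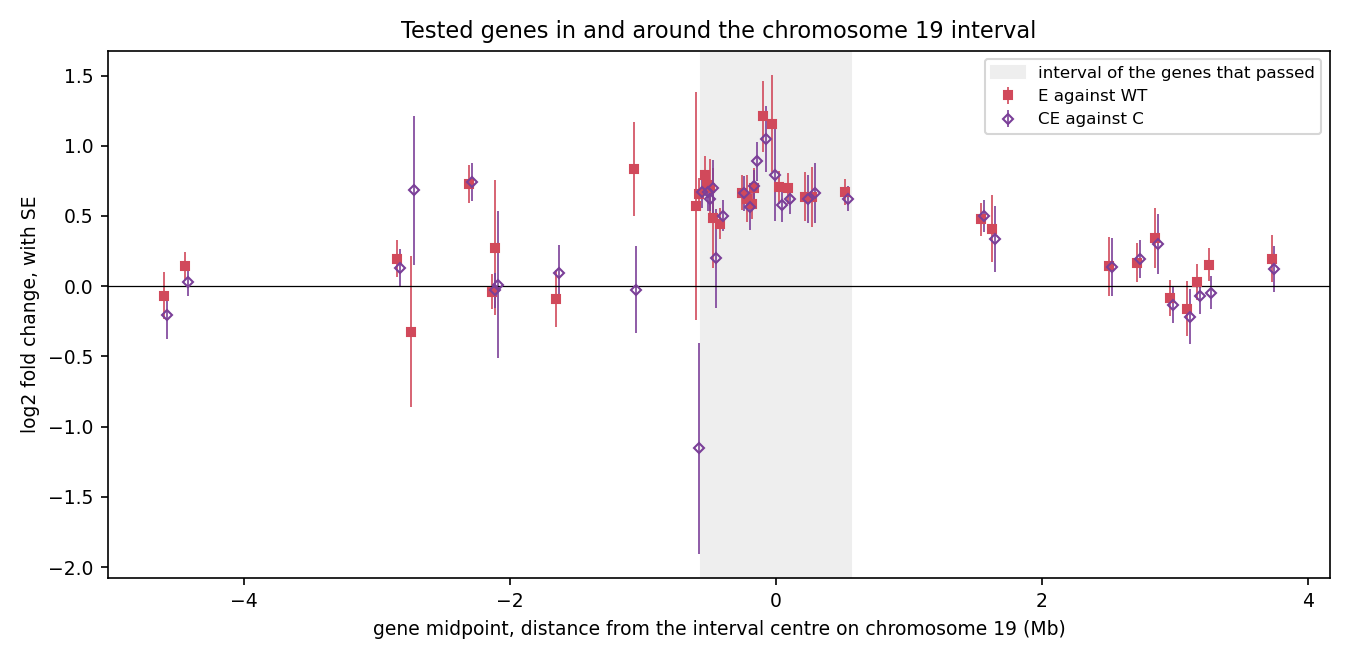
Log2 fold change with its SE (vertical) of the 17 tested genes of the chromosome 19 interval (grey band) and of 10 tested genes on either side, by the distance of the gene's midpoint from the centre of the interval in Mb (horizontal), for E against WT and CE against C. All 17 genes in the band lie above 0 in both comparisons. The genes outside it have medians of 0.17 before and 0.16 after the band in E against WT. Glis3 (0.84), Vldlr (0.73) and 4430402I18Rik (0.57) are the farthest above 0 of these in E against WT. In CE against C Vldlr is at 0.74, Glis3 at -0.03 and 4430402I18Rik at -1.155.

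The genes that fell belonged mostly to the surrogate light chain. Before a B-cell precursor has rearranged its own light chain, the proteins of Vpreb1, Vpreb2 and Igll1 stand in for it and pair with the new heavy chain to form the pre-B-cell receptor. Vpreb1 and Vpreb2 are copies of each other: their transcripts were identical at 739 of 759 aligned bases (97.4%), so short reads may be assigned to either. 1 window of each gene is shown because the likeness of the 2 bears on how far the genes can be told apart. The windows are those that RefSeq's promoter table for GRCm38.p6 lists for the 2 genes, written 5′ to 3′ on the gene's strand, with the longest stretch shared by both, 91 bases, in capitals.

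Vpreb1: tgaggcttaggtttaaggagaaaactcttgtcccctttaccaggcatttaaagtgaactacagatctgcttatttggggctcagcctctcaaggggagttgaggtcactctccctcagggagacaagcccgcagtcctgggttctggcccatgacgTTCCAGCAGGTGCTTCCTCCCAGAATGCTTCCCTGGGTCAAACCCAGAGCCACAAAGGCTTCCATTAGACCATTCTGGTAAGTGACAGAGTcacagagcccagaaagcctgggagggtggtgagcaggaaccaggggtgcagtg
Vpreb2: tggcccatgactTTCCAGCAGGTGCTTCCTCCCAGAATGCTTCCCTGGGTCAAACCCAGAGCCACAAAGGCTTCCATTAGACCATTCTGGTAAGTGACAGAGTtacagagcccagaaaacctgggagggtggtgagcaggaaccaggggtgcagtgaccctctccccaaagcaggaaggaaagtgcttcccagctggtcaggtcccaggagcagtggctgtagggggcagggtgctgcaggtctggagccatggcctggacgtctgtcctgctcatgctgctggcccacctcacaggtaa

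The Vpreb1 window lies at chr16:16869206-16869505 on the minus strand and the Vpreb2 window at chr16:17980315-17980614 on the plus strand. They aligned over 156 bases with 153 identical (98.1%). The Vpreb1 window spans the annotated start of its gene, while the Vpreb2 window lies wholly inside the gene as annotated, past its outermost start, so the 2 windows need not hold matching promoters. The shared run starts at base 157 of the Vpreb1 window and at base 13 of the Vpreb2 window.

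Vpreb1 (gene 22362, chromosome 16, 16868401 to 16869255) was at 18.2, 23.3 and 7.45 CPM in WT2, WT3 and WT4 and at 3.08, 4.37 and 2.41 CPM in E1, E2 and E3 (log2 -2.30, SE 0.34, adjusted p = 0.0161). Igll1 (gene 16136, chromosome 16, 16860671 to 16863985), which encodes the lambda 5 protein and lies beside Vpreb1, was at 23.1, 29.2 and 9.23 CPM in WT and at 3.08, 5.41 and 3.44 CPM in E (log2 -2.36, SE 0.35, adjusted p = 0.0168). Vpreb2 (gene 22363, chromosome 16, 17979445 to 17981274) was at 1.97, 4.09 and 1.26 CPM in WT and at 0.167, 0.380 and 0.356 CPM in E (log2 -2.99, SE 0.51, adjusted p = 0.0447). All 3 genes ranked the WT libraries in the same order, WT3 highest and WT4 lowest, and the lowest WT value was still above every E value. With 1 library left out at a time, Vpreb1 and Igll1 passed in 2 of 6 fits and Vpreb2 in 1. In CE against C the log2 fold changes were -2.27 for Vpreb1 (adjusted p = 0.009), -2.43 for Igll1 (adjusted p = 0.009) and -2.06 for Vpreb2 (adjusted p = 0.0799).

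Of 10 tested genes of the surrogate light chain and pre-B-cell receptor, 7 were lower and 3 higher, the 3 above passed, and the median was -1.0 (-0.60 without WT3). Vpreb3, which encodes a related chaperone-like protein, was at 8.18, 12.7 and 2.77 CPM in WT and at 2.92, 2.94 and 2.73 in E (log2 -1.47, adjusted p = 0.286), so the groups overlapped through WT4. Cd79a, which encodes a signalling chain of the B-cell receptor, was at 12.7, 22.2 and 6.28 CPM in WT and at 6.05, 4.97 and 3.04 in E (log2 -1.56, adjusted p = 0.227), without overlap. Its partner Cd79b was at 49.0 to 57.7 CPM in WT and 42.5 to 52.6 in E (log2 -0.18, adjusted p = 0.78).

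The wider B-lineage list, which holds those genes too, had 20 of 30 tested members lower and 10 higher, a median of -0.22 and no further member that passed. The groups were separated with E lower for 7 members and with E higher for 1, against 3.56% and 4.46% of all genes. Pax5, which fixes B-cell identity, was at 2.74, 3.38 and 1.47 CPM in WT and at 1.42, 0.791 and 0.514 in E (log2 -1.5, adjusted p = 0.382). Ebf1, an early B-cell factor, was at 1.46, 4.46 and 0.693 CPM in WT and at 0.334, 0.759 and 0.237 in E (log2 -2.28, adjusted p = 0.361). Rag1, a recombinase gene, was at 4.71, 9.97 and 4.90 CPM in WT and at 2.88, 2.94 and 4.11 in E (log2 -0.99, adjusted p = 0.587). WT3 was the highest library for each of these 3 genes.

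Other members of the list, picked after their values were seen, overlapped between the groups. Dntt, which encodes the terminal transferase that adds bases at recombination joints, was at 375 to 583 CPM in WT and 405 to 565 in E (log2 -0.06, adjusted p = 0.958). Il7r, the interleukin-7 receptor gene, was at 8.53 to 15.7 CPM in WT and 8.30 to 10.1 in E (log2 -0.38, adjusted p = 0.768). Rag2 was at 3.29 to 9.70 CPM in WT and 6.92 to 7.55 in E (log2 0.19, adjusted p = 0.895). With the WT average put at 0, the mean log2 CPM of the list was -0.15, 0.67 and -0.52 in WT2, WT3 and WT4 and -0.11, -0.31 and -0.80 in E1, E2 and E3, and without WT3 the list's median was -0.02. In CE against C, 29 of 30 members were lower, 10 passed as lower and the median was -1.08. In bulk RNA, fewer cells of a type and less RNA per cell cannot be told apart.

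Antibody genes of mature B and plasma cells went the other way in part of the E libraries. Igha, the constant region gene of immunoglobulin A, was at 0.365, 2.70 and 0.563 CPM in WT and at 495, 30.02 and 6.13 CPM in E1, E2 and E3 (log2 7.13, SE 1.42, adjusted p = 0.112). Its log2 fold change was 3.87 without E1, 4.11 with the replicate block and 4.01 with limma voom. Igkc, the kappa light chain constant region gene, was at 29.2, 83.3 and 45.1 CPM in WT and at 253, 311 and 22.7 CPM in E. Jchain, which encodes the chain that joins secreted antibodies, was at 5.81, 21.5 and 9.44 CPM in WT and at 76.7, 85.3 and 6.48 CPM in E. E1 and E2 were thus high for these genes, while E3 was within or below the WT range for Igkc and Jchain. Over the 15 tested antibody and plasma cell genes, a list chosen after the values were seen, the mean log2 CPM was 2.38, 1.74 and -0.29 in E1, E2 and E3 and -0.29, 0.66 and -0.37 in WT2, WT3 and WT4. Not one of the 15 passed. In CE against C 11 of the 15 were lower and 4 higher, with a median of -0.30. Igha was higher there without overlap between the groups (log2 4.245, adjusted p = 0.6445). Fcrla, an Fc receptor-like gene of mature B cells, was the B-lineage member that was separated as higher, at 0.402 to 1.28 CPM in WT and 1.46 to 3.80 in E (log2 2.05, adjusted p = 0.265). The part of such cells in the values of the B-lineage list was not tested.

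**Figure D4:**
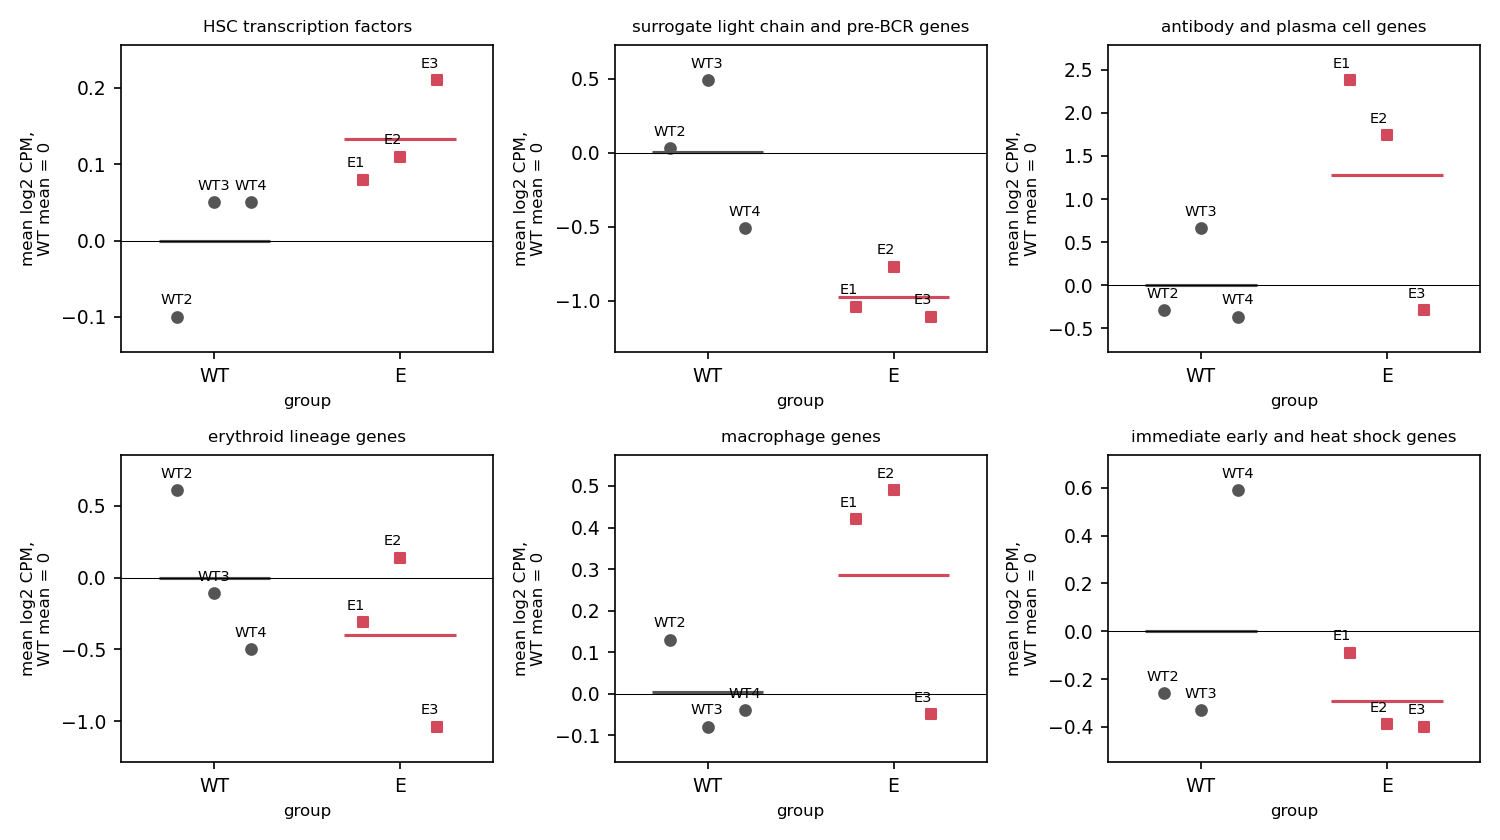
Mean log2 CPM of a gene list in each library, with the WT average put at 0 (vertical), by group (horizontal), for 6 lists, with a bar at each group's mean. The 3 E libraries lie below all WT libraries for the surrogate light chain list and above them for the HSC transcription factors. The antibody list is high in E1 and E2 and not in E3. Among the E and WT libraries WT4 stands alone in the immediate early list.

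Bfsp2 (gene 107993, chromosome 9, 103424924 to 103480405) encodes phakinin, a filament protein best known from the lens of the eye. It was at 12.8, 15.9 and 9.53 CPM in WT2, WT3 and WT4 and at 4.79, 4.08 and 4.39 CPM in E1, E2 and E3, so the lowest WT library was nearly double the highest E library. It fell 2.89-fold (log2 -1.53, SE 0.19, adjusted p = 0.00456) and passed in all 6 fits that left out 1 library. In the caspase knockout mice it was at 14.5, 21.2 and 17.3 CPM in C and at 6.19, 5.54 and 5.78 CPM in CE (log2 -1.60, adjusted p = 0.00293). Its WT libraries stood in the same order as for Vpreb1 and Igll1.

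Gm15915 (gene 100504069, chromosome 10, 93674218 to 93683322), annotated as a long noncoding RNA, was at 22.4, 26 and 25.5 CPM in WT and at 14.0, 10.7 and 9.25 CPM in E. It fell 2.18-fold (log2 -1.12, SE 0.16, adjusted p = 0.016), and it passed in 3 of the 6 fits that left out 1 library. The caspase knockout libraries without the transgene were already low, at 8.47, 8.59 and 9.96 CPM in C1, C2 and C3, with 6.99, 5.20 and 5.39 CPM in CE (log2 -0.62, adjusted p = 0.361). The difference between these 2 transgene effects did not pass for Gm15915 (log2 of the difference -0.50, adjusted p = 1).

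The promoter windows of the 12 genes, 1 each, were searched on both strands for CACGTG, the E-box that MYC and MAX bind, and 0 held it. Over the 13951 windows of genes tested, 9.75% held it. Of 15 windows of genes in the chromosome 19 interval 1 held CACGTG, that of A930007I19Rik. Among the 12, the windows of Vpreb2 and Bfsp2 lie wholly inside their genes as annotated, past the outermost start. In the interval the same holds for Plgrkt, Cd274 and 9930021J03Rik. A missing match says only that these letters are not in the window.

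Below the threshold, the 10 genes with the smallest unadjusted p held 4 more from chromosome 19 (Jak2, Vldlr, Plgrkt and Cd274) together with Igha. The other 5 were Ptgs2, Gfra2, Scn4b, Hlf and Tnf. Ptgs2, the inducible cyclooxygenase gene, was at 4.13, 3.35 and 5.93 CPM in WT and at 1.83, 1.42 and 1.70 in E (log2 -1.43, SE 0.26, adjusted p = 0.0689). Gfra2, a receptor gene for the neurotrophic factor neurturin, was at 5.48, 8.45 and 2.21 CPM in WT and at 1.001, 1.74 and 0.870 in E (log2 -2.14, SE 0.40, adjusted p = 0.0723). Scn4b, a sodium channel subunit gene, was at 1.06, 2.43 and 0.563 CPM in WT and at 0.125, 0.0949 and 0.277 in E (log2 -3.05, SE 0.57, adjusted p = 0.0723). None of these overlapped between the groups, and Gfra2 and Scn4b shared the WT order of the surrogate light chain genes. Of these, Gfra2 (log2 -2.87, adjusted p = 0.00709) and Scn4b (log2 -2.88, adjusted p = 0.0245) passed in CE against C, while Ptgs2 was at log2 -0.28 there.

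Genes of stem cell identity lay slightly higher in E, with no member that passed. Of 30 HSC transcription factor genes 21 were higher and 9 lower, the median was 0.15, and 5 were separated as higher and 0 as lower, against 4.46% and 3.56% of all genes. Hlf, which encodes a factor that marks and sustains HSCs, was at 66.9, 90.4 and 87.5 CPM in WT and at 109, 126 and 133 CPM in E (log2 0.59, SE 0.12, adjusted p = 0.112). Mecom, which encodes the HSC factor EVI1, was at 8.92, 11.3 and 10.7 CPM in WT and at 12.2, 16.2 and 16.1 in E (log2 0.52, SE 0.16, adjusted p = 0.463). Both were without overlap. Hoxa9, a homeobox gene of stem and progenitor cells, overlapped, at 49.5 to 61.7 CPM in WT and 60.7 to 78.1 in E (log2 0.29, adjusted p = 0.668). The mean log2 CPM of the list was 0.08, 0.11 and 0.21 in E1, E2 and E3, against -0.10, 0.05 and 0.05 in WT2, WT3 and WT4 around their mean of 0. On that scale C1, C2 and C3, without the transgene, were at 0.10, 0.14 and 0.18, within the range of E. CE1, CE2 and CE3 were at 0.29, 0.33 and 0.34.

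Of 26 HSC surface and sort genes 21 were higher and 5 lower, with a median of 0.16. Esam, an adhesion molecule of HSCs, was at 14.7 to 17.9 CPM in WT and 19.6 to 21.9 in E (log2 0.38, adjusted p = 0.627). Tek, the angiopoietin receptor gene, was at 8.66 to 11.3 CPM in WT and 12.1 to 15.1 in E (log2 0.43, adjusted p = 0.66). Both separated the groups. Itga2b, also on this list, separated them with E lower (log2 -0.26, adjusted p = 0.722). Of the 26 members 2 were separated as higher and 1 as lower, against 4.46% and 3.56% of all genes. The medians of the 2 lists in CE against C were 0.17 and 0.15. Multipotent progenitor genes (23 tested) were split, 12 higher and 11 lower, with a median of 0.00. Quiescence and cyclin inhibitor genes (23 tested) had 8 higher and 15 lower, with a median of -0.07. Cdkn1a, which encodes the cell cycle inhibitor p21, was at 45.9, 51.6 and 83.4 CPM in WT and at 48.9, 32.6 and 32.5 in E (log2 -0.67, adjusted p = 0.572).

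**Figure D5:**
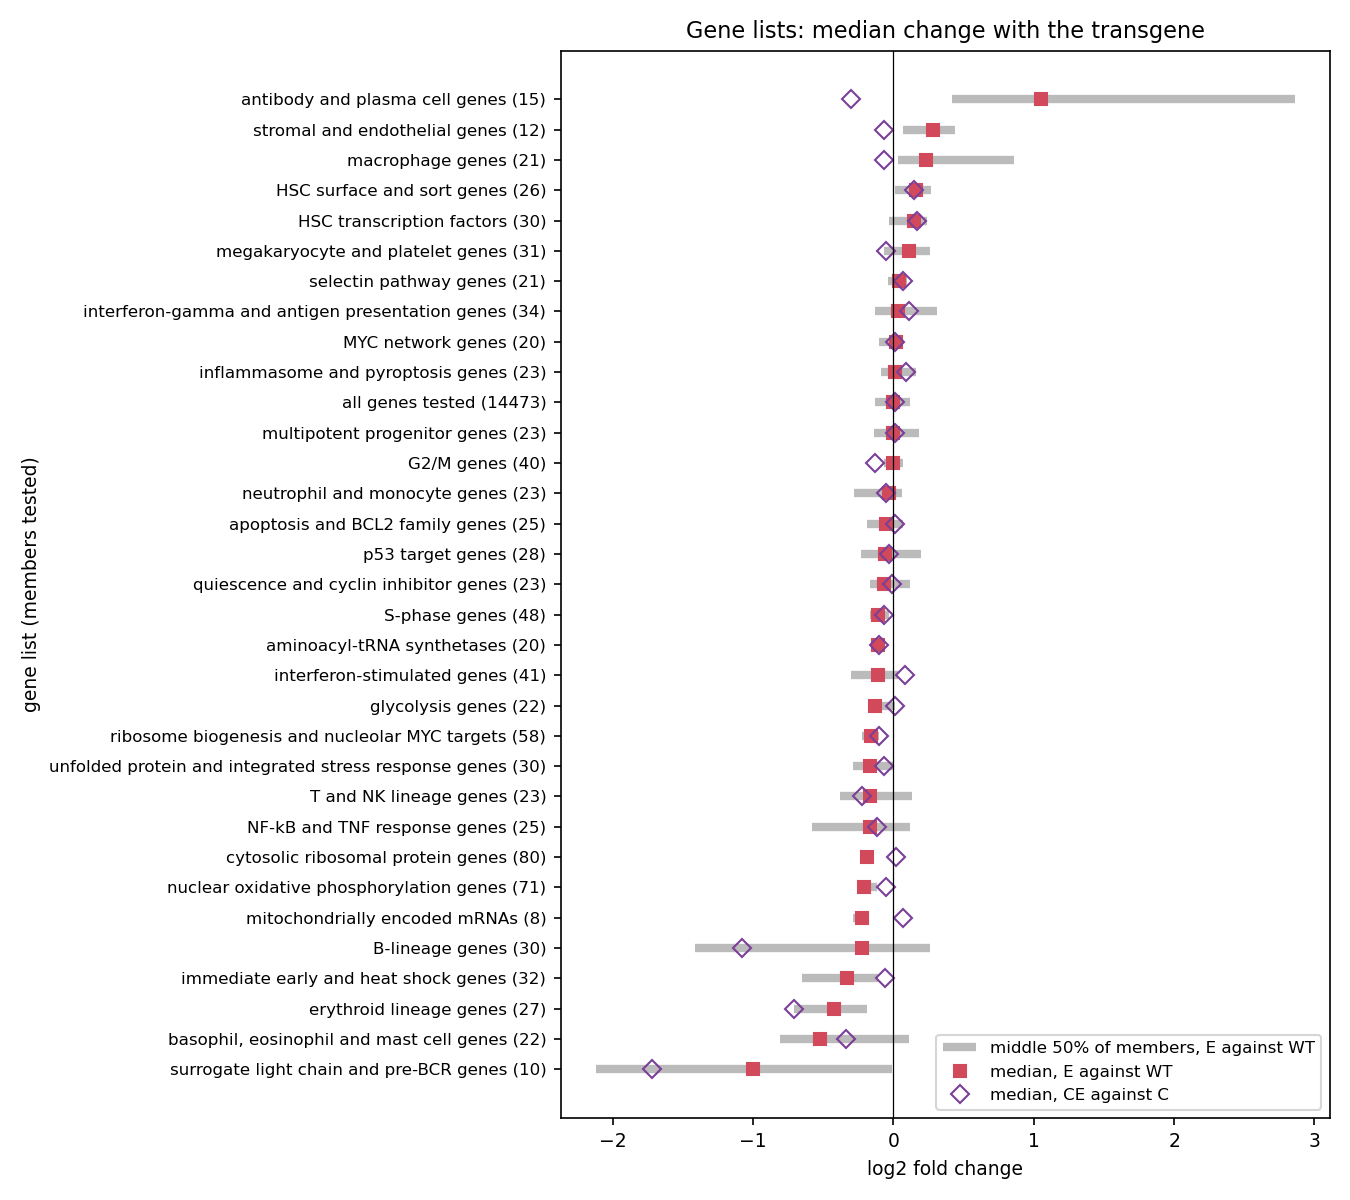
Median log2 fold change of each gene list (horizontal) for E against WT and CE against C, with the number of tested members after the list's name (vertical) and a grey bar over the middle 50% of members in E against WT. The surrogate light chain list lies lowest at -1.0 and the antibody list highest at 1.05 in E against WT. The lists of growth and metabolism lie between -0.22 and -0.11, apart from G2/M genes at -0.00 and the MYC network at 0.02.

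Genes of other lineages varied between libraries as much as between groups. Erythroid genes had 23 of 27 members lower and 4 higher, with a median of -0.42, and 0 separated. Klf1, the erythroid master regulator gene, was at 55.3, 21.6 and 25.7 CPM in WT and at 20.6, 28.4 and 12.9 in E (log2 -0.73, adjusted p = 0.747). The mean log2 CPM of the list was highest in WT2 (0.61) and lowest in E3 (-1.04), and without WT2 the median was 0.00. Basophil, eosinophil and mast cell genes had 16 of 22 lower, a median of -0.52 and 4 separated as lower, against 3.56% of all genes. Hdc, which encodes the enzyme that makes histamine, was at 83.6, 63.6 and 72.3 CPM in WT and at 46.7, 46.5 and 56.7 in E (log2 -0.55, SE 0.14, adjusted p = 0.361). Prg3, an eosinophil granule gene, was at 9.24, 4.50 and 3.03 CPM in WT and at 2.17, 2.499 and 2.02 in E (log2 -1.33, adjusted p = 0.487). Neutrophil and monocyte genes (8 of 23 higher, median -0.03) and T and NK genes (9 of 23 higher, median -0.17) lay nearer 0.

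Macrophage genes had 16 of 21 members higher, with a median of 0.23 (0.35 without E3, 0.15 without WT3), and 5 were separated as higher, against 4.46% of all genes. Vcam1, an adhesion molecule of marrow macrophages and stroma, was at 4.60, 3.96 and 2.82 CPM in WT and at 9.80, 8.98 and 4.23 in E (log2 1.01, SE 0.27, adjusted p = 0.382). Spic, a factor of red pulp macrophages, was at 1.52 to 2.23 CPM in WT and 3.21 to 3.76 in E (log2 0.86, adjusted p = 0.5). C1qb, a complement gene, was at 1.52 to 1.86 CPM in WT and 1.98 to 4.14 in E (log2 0.90, adjusted p = 0.533). The mean log2 CPM of the list was 0.42 and 0.49 in E1 and E2, the libraries that were high for antibody genes, and -0.05 in E3. The median in CE against C was -0.07. Of 21 stromal and endothelial genes 12 could be tested, and 9 of these were higher (median 0.28, and 0.15 without WT3).

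No member of the MYC network or of the MYC target lists passed. Of 20 tested genes of the MYC, MAX and MXD network 11 were higher and 9 lower, with a median of 0.02. Of 58 ribosome biogenesis and nucleolar genes 54 were lower, with a median of -0.16 (-0.08 without WT2 and -0.09 without E3). Odc1, a polyamine synthesis gene and textbook MYC target, was at 370, 323 and 413 CPM in WT and at 321, 296 and 230 in E (log2 -0.39, SE 0.12, adjusted p = 0.533), just without overlap. Fbl, which encodes the nucleolar protein fibrillarin, was at 191 to 249 CPM in WT and 153 to 202 in E (log2 -0.32, adjusted p = 0.687).

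No other growth list had a member that passed, and in all of them but the G2/M list most members were lower. The medians moved with single libraries. Cytosolic ribosomal protein genes had 79 of 80 lower (median -0.19), nuclear genes of oxidative phosphorylation 68 of 71 (median -0.21), aminoacyl-tRNA synthetases 19 of 20 (median -0.11) and glycolysis genes 15 of 22 (median -0.13). Within the ribosomal protein list the libraries overlapped: its mean log2 CPM was 0.12, -0.24 and 0.12 in WT2, WT3 and WT4 and 0.05, -0.43 and -0.17 in E1, E2 and E3. Its median in CE against C was 0.02. Without E2 the ribosomal protein median was -0.07 and without WT3 -0.30, without WT2 the oxidative phosphorylation median was -0.10, without E3 that of the synthetases was -0.04, and without WT4 that of glycolysis genes was 0.01. The 8 tested mitochondrially encoded mRNAs had a median of -0.22, which was 0.01 without WT2. S-phase genes had 41 of 48 lower (median -0.11, and -0.06 without E3 or WT2), and G2/M genes were split, 20 higher and 20 lower (median -0.00).

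In stress and inflammatory genes WT4 stood apart from WT2 and WT3. Of 32 immediate early and heat shock genes 28 were lower and 4 higher, with a median of -0.33. Nr4a1, an immediate early nuclear receptor gene, was at 121, 143 and 395 CPM in WT2, WT3 and WT4 and at 105, 65.4 and 66.0 in E (log2 -1.48, SE 0.34, adjusted p = 0.248). Nr4a2 was at 14.5, 12.6 and 18.7 CPM in WT and at 9.17, 10.1 and 9.01 in E (log2 -0.69, SE 0.17, adjusted p = 0.34). Both separated the groups, although WT4 was the highest library for each. Without WT4 the median of the list was -0.04. The mean log2 CPM of the list was 0.59 in WT4, and -0.26 and -0.33 in WT2 and WT3. The caspase knockout libraries stood with WT4, at 0.83 to 0.94 in C and 0.47 to 0.93 in CE. The heat shock genes Hspa1a and Hspa1b stood on the other side. Hspa1a was at 4.02 to 8.15 CPM in WT and 11.0 to 23.7 in E (log2 1.55, adjusted p = 0.669). Hspa1b was at 5.41 to 16.2 CPM in WT and 21.5 to 38.9 in E (log2 1.60, adjusted p = 0.66).

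Of 25 NF-kB and TNF response genes 17 were lower (median -0.17), and without WT4 the median was 0.09. Tnf was at 14.2, 14.4 and 20.2 CPM in WT and at 10.7, 7.31 and 9.25 in E (log2 -0.84, SE 0.17, adjusted p = 0.129). Tnfaip3, which encodes the NF-kB inhibitor A20, was at 39.2, 43.3 and 116 CPM in WT and at 31.3, 23.7 and 27.4 in E (log2 -1.27, adjusted p = 0.361). Both separated the groups. Interferon-stimulated genes had 29 of 41 lower (median -0.11), and Isg15, a ubiquitin-like interferon-response gene, was at 27.9, 18.02 and 18.2 CPM in WT and at 13.3, 12.4 and 14.7 in E (log2 -0.67, adjusted p = 0.583). Genes of interferon-gamma response and antigen presentation had 19 of 34 higher (median 0.03). Unfolded protein and integrated stress response genes had 22 of 30 lower (median -0.17, and -0.02 without WT2).

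Genes of cell death pathways showed no common direction. Inflammasome and pyroptosis genes had 12 of 23 higher (median 0.01), apoptosis and BCL2 family genes 9 of 25 (median -0.05), and p53 target genes 11 of 28 (median -0.06). Plk3, a polo-like kinase gene, was at 16.4, 13.6 and 29.9 CPM in WT and at 11.2, 7.34 and 6.17 in E (log2 -1.28, SE 0.26, adjusted p = 0.129). Trp53inp1, a p53-induced stress gene, was at 18.9, 29.6 and 17.4 CPM in WT and at 32.3, 34.8 and 43.1 in E (log2 0.74, SE 0.17, adjusted p = 0.248). Both separated the groups, in opposite directions.

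Of all genes tested, 57.8% had the same direction in E against WT and CE against C, and the gene lists did so only in part. The medians were -0.42 and -0.71 for erythroid genes and 0.15 and 0.17 for HSC transcription factors. They were -0.11 and 0.08 for interferon-stimulated genes and -0.22 and 0.07 for mitochondrially encoded mRNAs. All 12 genes that passed in E against WT had the same direction in CE against C. The groups did not overlap there for any of the 12, against 14.9% of all genes tested without overlap. Of them 8 passed there as well, against 0.207% of all genes tested. These 8 were 4 of the 6 of the chromosome 19 interval and 4 of the other 6. The 2 tests share a fit and its estimate of each gene's spread, so a pass in both is not independent. Of the 480 genes higher in E at an unadjusted p under 0.05, 375 (78.1%) were higher in CE, and of the 472 lower, 393 (83.3%) were lower, against 57.8% with one direction among all genes tested. The difference between the 2 effects was tested for every gene: 0 passed (0%) by edgeR, DESeq2 or limma voom, with 305 (2.11%) at an unadjusted p under 0.05. Of the C and CE libraries, Y-linked transcripts were present in all but CE3, and they were near 0 in CE3 and in the 6 E and WT libraries. The mice of the 2 comparisons thus also differed in sex, and sex was not balanced between C and CE.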

How the data were processed

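For each of 12 libraries the authors deposited whole-number counts of 27179 genes, listed by NCBI Gene number, with no sign of normalization. STAR 2.5.3 and the mm10 build are credited to the submitters' processing notes; for the counter, annotation and strandedness nothing is given in the sources used here. RefSeq (GRCm38.p6) gave the symbols and positions of 25275 genes.

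All 12 libraries were fitted with edgeR 4.0.16 in R 4.3.3 (TMM factors, filterByExpr by group, group means, two-sided quasi-likelihood F tests), leaving 14473 genes and 8 residual degrees of freedom. The pipeline was tested on simulated data. The threshold was 0.05 after Benjamini-Hochberg adjustment. The SE is the log2 fold change over the root of F. List means used log2 CPM with a prior count of 2. Figures were drawn with matplotlib 3.10.9.

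The named genes are Myc, Casp1 and Casp4, all genes that passed, all tested genes of the chromosome 19 interval, up to 3 members of each list with the smallest unadjusted p, and the 10 genes next in p. Others named, such as markers and neighbours, were chosen after their values were seen, and some results under the rule are not reported here. The members and the 32 lists were chosen with earlier results of these data known. Lists were described by counts and medians, with no set test. Alternatives used RLE factors, no low-count filter, 1 CPM in at least 6 libraries, DESeq2 1.42.0, limma 3.58.1 voom with quality weights, a replicate block, only the libraries compared, each library left out, and, chosen after seeing the data, removal of length and GC trends.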

Additional observations from a re-analysis of the deposited data

How the results depend on the processing

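The 12 genes of E against WT became 217 with no low-count filter, 48 with DESeq2, 28 with the replicate block (11 of the 12 among them) and 1, Selp, with only the 6 libraries in the fit. Leaving out 1 library gave 5 to 21 genes, with 5 without E3 and 21 without WT4. In CE against C, 30 genes became 203 with no low-count filter, 66 with DESeq2, 109 with limma voom, 47 with the replicate block, 110 with only its libraries and 2 to 13 with 1 library left out. The difference between the effects had 0 genes, and 39 with no low-count filter. Of the chromosome 19 interval 6 genes passed, against 13 with no low-count filter, 11 with DESeq2, 11 with length and GC trends removed, 0 with only the 6 libraries and 1 to 5 with 1 library left out; all 17 stayed higher each time. The causes were not tested. The 12 genes kept their direction in every setting that gave them a value, while Casp1 (log2 -0.08 and -0.05) and Myc (-0.02 in both) turned negative with the replicate block and without WT4, and neither passed. List medians that changed sign include those of megakaryocyte (-0.14 without E2), T and NK (0.07 without E2, 0.08 without WT3), quiescence and glycolysis genes (0.01 each without WT4). The replicate numbers are not tied to shared animals or litters by the labels: deviations of same-numbered libraries correlated at 0.16 (E2 and WT2) and 0.11 (E3 and WT3), and at -0.45 to 0.28 over all such pairs. With 3 mice a group and a median SE of 0.14 on the log2 scale, shifts such as those of the growth lists were below what a single gene's test could show.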

Other observations

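Single immunoglobulin variable gene segments stood out in single libraries, and their largest fold changes rested on these. Igkv5-39, a kappa light chain variable segment, was at 163.7 CPM in E2 and at 0 to 3.25 CPM in the other 5 E and WT libraries (log2 5.63, adjusted p = 0.6). Ighv6-3, a heavy chain variable segment, was at 108.4 CPM in E2 and at 0.101 to 2.12 CPM in those 5 (log2 5.66, adjusted p = 0.534). Ighv11-2, a heavy chain segment of innate-like B cells, went the other way: it was at 3.11, 0.237 and 0.0433 CPM in WT2, WT3 and WT4 and listed at 0 in E1, E2 and E3. In the caspase knockout mice it was at 4.94, 1.01 and 4.37 CPM in C1, C2 and C3 and at 0.0346, 0.0340 and 0 CPM in CE1, CE2 and CE3. Ighv1-69 (7.38 CPM) and Ighv1-76 (5.46 CPM) were high in E1, against at most 1.13 and 0.65 CPM in the other 5. None of these segments passed, and near-identical segments may share reads.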
